A study of Canis lupus familiaris with 20 samples.

Results

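Genes of lipid carriage were followed in dog retina after injection of ciliary neurotrophic factor (CNTF) into the eye. They are the secreted carriers APOE, APOD and CLU, the export and remodelling genes ABCA1, LPL and PLTP, and the fatty acid binding proteins FABP3, FABP5, FABP7 and FABP12. These 10, of 10608 named genes with a usable probe, were chosen from results of the same arrays, so their CNTF changes are described here and not offered as a test. Every probe whose gene name or description gave one of the 10 was taken, 26 in all, of which 24 were kept because 4 or more of the 5 arrays in some group gave a signal above background. The main probe of a gene is the one with the highest mean signal.

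The arrays hold 4 groups of 5 retinas, all from the same 10 dogs. CNTF eyes and PBS eyes of CNGB3-mutant dogs come from 5 CNGB3m/m animals that carry the missense change D262N, 3 of them female. CNGB3 encodes a subunit of the cation channel through which cones answer light. CNTF eyes and PBS eyes of normal dogs come from 5 males, of which dogs 1, 2, 4 and 5 were CNGB3+/m carriers and dog 3 was CNGB3+/+. Right eyes received 12 µg of CNTF, left eyes received buffer (PBS), and retinas were taken after 1 week. The sample labels give ages of 10.7 to 11.5 weeks for mutants and 8.9 weeks for normal dogs, whereas the study design gives about 11 months for both, and genotype cannot be told apart from the labelled age.

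Lipids move between retinal cells on particles that carry apolipoproteins. APOE, made in retina mainly by Müller glia, and clusterin (CLU) coat such particles, APOD is a lipocalin that binds small hydrophobic molecules, and ABCA1 loads cholesterol and phospholipid onto them. LPL splits triglyceride into free fatty acids and PLTP passes phospholipid between particles. Inside cells, small fatty acid binding proteins hold free fatty acids, with FABP7 typical of glia and their precursors, FABP5 of many epithelial and neural cells and FABP3 of heart and neurons.

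The sequences that the values rest on are 60-base probes copied from the array files, printed 5′ to 3′ with their canFam2 positions. They are shown for the probes that place a gene or that separate it from a relative or a neighbour. APOE probe 2 lies at chr1:113416803-113416862 and LPL probe 2 at chr25:40077457-40077516, both on the minus strand. APOD lies at chr33:33545320-33545379 and CLU probe 5, the clusterin probe counted here, at chr25:32981653-32981712, both on the plus strand. PLTP probe 2 lies at chr24:36169869-36169928 on the minus strand, the strand opposite to PLTP probe 1.
APOE probe 2: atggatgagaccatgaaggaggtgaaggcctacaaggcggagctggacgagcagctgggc
APOD: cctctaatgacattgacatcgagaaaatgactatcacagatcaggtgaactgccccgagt
CLU probe 5: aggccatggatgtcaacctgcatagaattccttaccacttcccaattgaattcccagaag
LPL probe 2: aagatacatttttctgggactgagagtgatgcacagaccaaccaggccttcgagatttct
PLTP probe 2: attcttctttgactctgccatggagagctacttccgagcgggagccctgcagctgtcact

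The fatty acid binding probes are printed because family members resemble each other. FABP5 probe 1 lies at chr27:28734785-28734844 on the plus strand, whereas FABP5 probe 2 lies on chromosome 29, where RefSeq's table has the FABP5 gene and where FABP12 (chr29:31695971-31697619, minus strand) and FABP4 (chr29:31654192-31654708, minus strand) also lie. Capitals mark bases identical to FABP5 probe 1 in the best alignment without gaps, 38 of 47 aligned bases (80.9%) for FABP12 and 39 of 54 (72.2%) for FABP4.
FABP5 probe 1: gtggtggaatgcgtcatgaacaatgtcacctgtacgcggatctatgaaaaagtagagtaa
FABP12: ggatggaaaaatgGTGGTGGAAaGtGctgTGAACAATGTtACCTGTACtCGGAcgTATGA
FABP4 probe 1: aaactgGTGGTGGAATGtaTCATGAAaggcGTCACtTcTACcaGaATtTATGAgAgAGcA

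Signals are given as scaled log2 values, log2 of the background-subtracted intensity minus the 75th percentile of its array, so that 0 is the level of that percentile and 1 unit is a doubling, and values of a group run in the order of dogs 1 to 5. Changes are log2 differences of the CNTF eye minus the PBS eye of the same dog, with the standard error (SE) of limma's paired fit over all 20 arrays and 5 dogs per genotype. A probe was called when its p, adjusted by Benjamini-Hochberg over all 29336 probes tested, was under 0.05. The set did not move one way. In mutant dogs 7 of the 10 genes were called higher in CNTF eyes, where 11.6% of all probes were, and 2 were called lower, where 17.3% were. In normal dogs 8 were called higher, against 23.6% of all probes, and 2 lower, against 27.6%. FABP3 and FABP12 were the genes called lower in both genotypes, and PLTP, counted by its probe 1, was called in normal dogs but not in mutants, while its probe 2 was called lower in mutants and not in normal dogs. The median change of the 10 genes was 1.26 in mutant dogs and 1.72 in normal dogs, while the median over all probes was -0.09 in each. These counts restate how the genes were chosen and support nothing by themselves. Clusterin is counted by its probe 5, since its brightest probe was saturated on all 20 arrays.

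**Figure D1:**
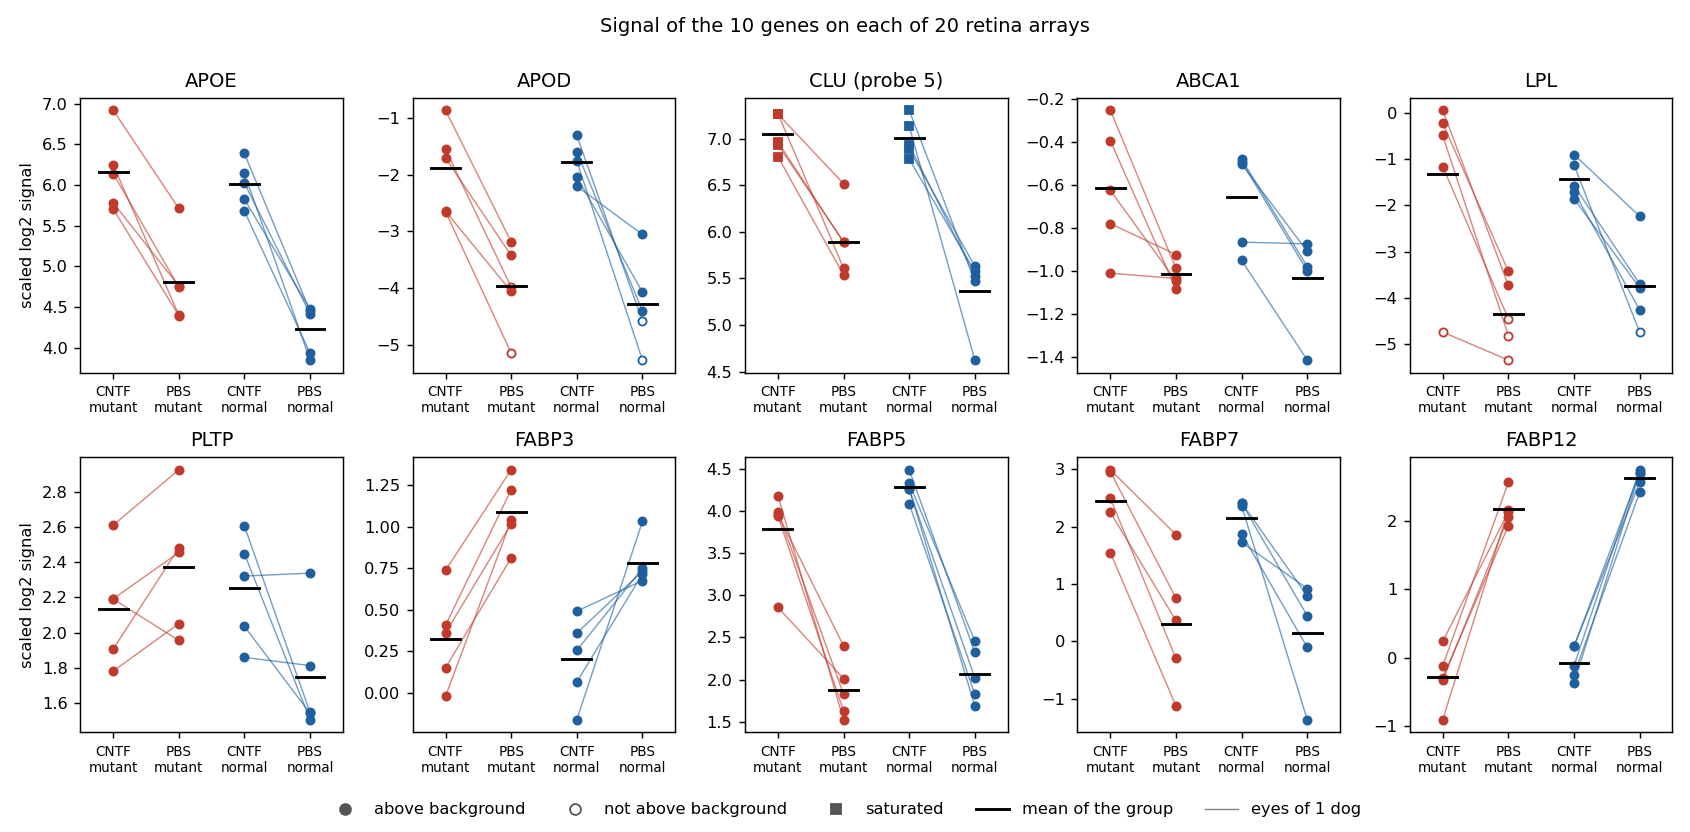
Scaled log2 signal (vertical axis, 0 is the 75th percentile of the array) of each of the 10 genes on each of the 20 arrays, in CNTF and PBS eyes of mutant dogs and then of normal dogs. Points are eyes, thin lines join the eyes of 1 dog, thick bars are group means of 5, open points were not above background and squares were saturated. APOE, APOD, CLU, ABCA1, LPL, FABP5 and FABP7 average higher in CNTF eyes of both genotypes, and FABP3 and FABP12 average lower.

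The groups of eyes often separated completely. In mutant dogs 3 genes were higher in every CNTF eye than in any PBS eye, a pattern of 6.88% of all probes, and 2 were lower in every CNTF eye, as were 7.87% of all probes. In normal dogs 6 genes were higher without overlap (14.2% of all probes) and 2 were lower without overlap (15.8%). FABP3 and FABP12 made up the lower pair in each genotype. The genes whose groups overlapped in normal dogs were ABCA1 and PLTP.

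APOE was high in every CNTF eye. APOE probe 1 gave 6.25, 6.92, 6.14, 5.78 and 5.71 in CNTF eyes of mutant dogs, against 4.40, 5.71, 4.75, 4.76 and 4.40 in PBS eyes of mutant dogs. APOE probe 1 gave 6.39, 5.83, 6.15, 6.03 and 5.68 in CNTF eyes of normal dogs, against 4.45, 4.48, 3.85, 4.42 and 3.93 in PBS eyes of normal dogs. The CNTF eye was above its fellow eye in all 10 dogs, and the only overlap came from mutant dog 2, whose PBS eye reached the level of the lowest CNTF eye. The change was 1.36 ± 0.15 in mutant dogs (2.56-fold higher) and 1.79 ± 0.15 in normal dogs (3.45-fold higher). APOE probes 2 and 3, also on chromosome 1, changed by 1.85 ± 0.22 and 1.89 ± 0.17 in mutants and by 2.68 ± 0.20 and 2.43 ± 0.17 in normal dogs. For APOE probe 2 the PBS eye of mutant dog 4 was marked as an outlier and left out. APOE probe 4 behaved otherwise, at -0.01 ± 0.14 in mutants (not called) and 0.92 ± 0.14 in normal dogs. That probe was assigned to APOE by its description only, is placed on chromosome 2 beside RCC2 and not on chromosome 1, and holds 16.7% G and C.

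APOD, at the low end of the signal range, was higher in all 10 CNTF eyes. APOD gave -2.65, -0.86, -1.55, -2.64 and -1.70 in CNTF eyes of mutant dogs, against -5.15, -3.18, -3.98, -4.06 and -3.42 in PBS eyes of mutant dogs. APOD gave -1.30, -1.59, -1.75, -2.04 and -2.20 in CNTF eyes of normal dogs, against -4.59, -4.41, -5.27, -4.07 and -3.05 in PBS eyes of normal dogs. No CNTF eye overlapped a PBS eye of its genotype. The probe was above background on all CNTF arrays but on 3 of 5 PBS arrays of each genotype, so the size of the change, 2.08 ± 0.33 in mutants and 2.50 ± 0.33 in normal dogs, is less certain than its direction. With normexp background correction, an alternative, it was 1.21 ± 0.20 in mutants and 1.31 ± 0.20 in normal dogs, still called.

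Clusterin was so abundant that its probes limited the measurement. CLU probes 1 and 3, which share 44 bases, were saturated on every array, and CLU probes 2, 4 and 5 were saturated on all 10 CNTF arrays. CLU probe 2 was saturated on 3 of 5 PBS arrays of mutants and 2 of 5 of normal dogs as well. CLU probe 5 gave saturated values of 7.27, 7.27, 6.97, 6.94 and 6.81 in CNTF eyes of mutant dogs, against 5.61, 6.52, 5.89, 5.89 and 5.54 in PBS eyes of mutant dogs. CLU probe 5 gave saturated values of 6.94, 6.89, 7.14, 6.78 and 7.31 in CNTF eyes of normal dogs, against 5.53, 5.63, 4.62, 5.58 and 5.47 in PBS eyes of normal dogs. Both genotypes separated without overlap, so CLU probe 5 was at least 2.23-fold higher in CNTF eyes of mutants and at least 3.13-fold higher in those of normal dogs. CLU probe 4 gave at least 1.65-fold in mutants and at least 2.03-fold in normal dogs, each from 4 PBS eyes, since that of dog 3 was marked as an outlier in both genotypes.

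**Figure D2:**
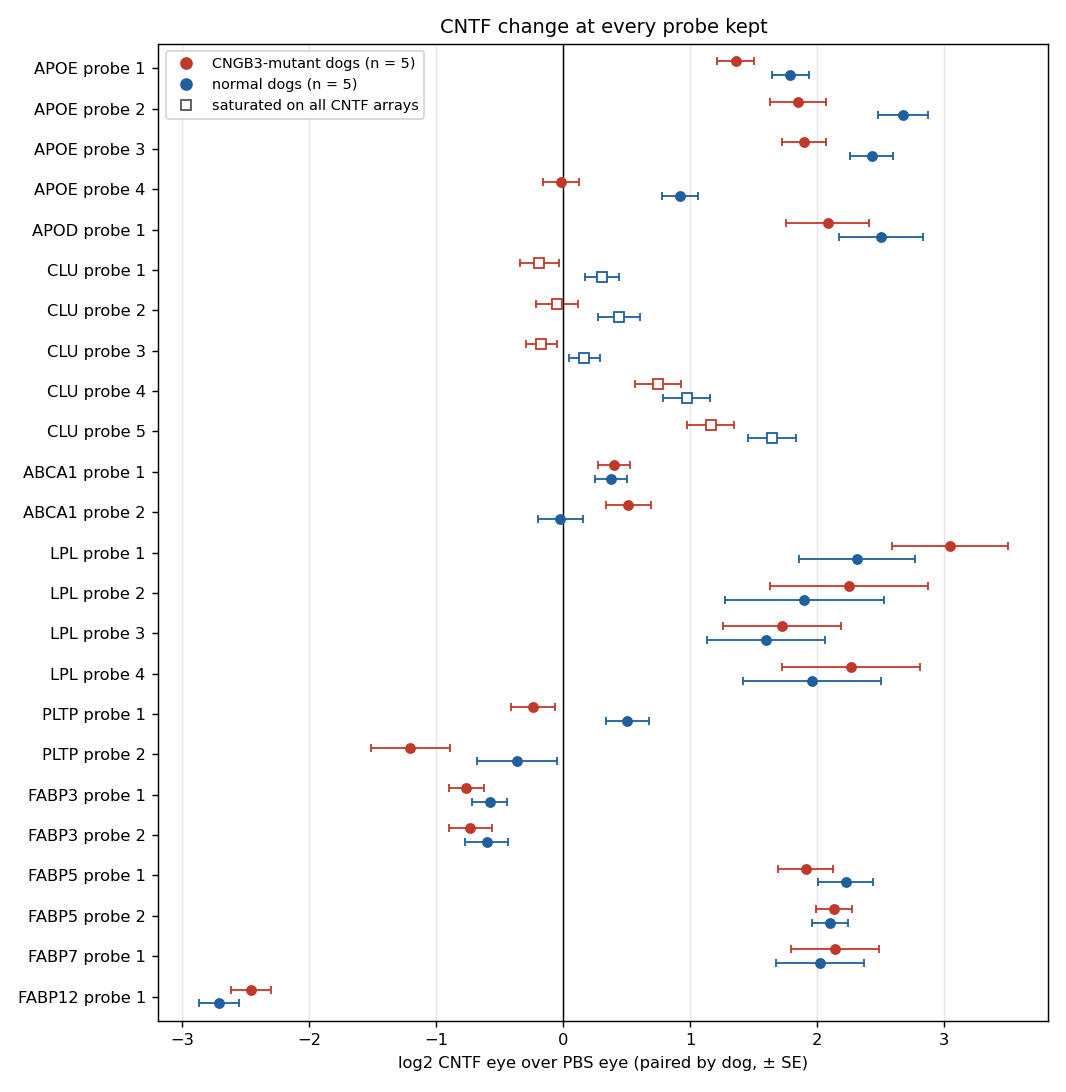
Change of the CNTF eye over the PBS eye (horizontal axis, log2, paired by dog, with SE bars) at each of the 24 probes kept, in mutant dogs (red, upper point of each pair) and normal dogs (blue, lower point), 5 dogs each, or 4 where an eye was left out. Open squares are probes saturated on all CNTF arrays, whose changes are not fully measured. Probes of FABP3 and of FABP5 lie close together, and the LPL probes all lie above 0, at 1.72 to 3.04 in mutants. APOE probe 4, the CLU probes, the PLTP probes and, in normal dogs, the ABCA1 probes lie apart from their partners.

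ABCA1 showed the smallest of the rises called at main probes. ABCA1 probe 1 gave -0.25, -0.62, -0.39, -1.01 and -0.78 in CNTF eyes of mutant dogs, against -0.99, -1.05, -1.08, -1.03 and -0.92 in PBS eyes of mutant dogs. ABCA1 probe 1 gave -0.95, -0.48, -0.49, -0.86 and -0.50 in CNTF eyes of normal dogs, against -1.41, -0.98, -1.0, -0.87 and -0.91 in PBS eyes of normal dogs. All 10 dogs lay in the same direction, but by as little as 0.02 in mutant dog 4 and 0.01 in normal dog 4, and the groups overlapped. The change was 0.40 ± 0.13 in mutants and 0.38 ± 0.13 in normal dogs. ABCA1 probe 2 gave 0.51 ± 0.18 in mutants and -0.02 ± 0.18 in normal dogs and was called in neither. The call of probe 1 was lost without mutant dog 1, 2 or 3 in mutants and without normal dog 1, 2, 3 or 5 in normal dogs, with changes of 0.32 to 0.50 and 0.34 to 0.47 over all the single dogs left out.

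LPL, the lipase of triglyceride-rich particles, was far higher in 9 of 10 CNTF eyes. LPL probe 1 gave -1.16, -4.74, -0.49, -0.22 and 0.06 in CNTF eyes of mutant dogs, against -4.45, -5.35, -4.82, -3.42 and -3.73 in PBS eyes of mutant dogs. LPL probe 1 gave -1.13, -1.70, -1.85, -0.90 and -1.57 in CNTF eyes of normal dogs, against -4.74, -4.26, -3.78, -2.23 and -3.70 in PBS eyes of normal dogs. The exception was mutant dog 2, whose CNTF eye stayed within the PBS range and was not above background. The change was 3.04 ± 0.46 in mutants and 3.65 ± 0.32 without mutant dog 2, and it was 2.31 ± 0.46 in normal dogs. All 4 LPL probes were called higher in both genotypes, with changes of 1.72 to 3.04 in mutants and 1.59 to 2.31 in normal dogs, and in mutant dog 2 probes 2 to 4 were lower in the CNTF eye. Only 2 of 5 PBS arrays of mutants and 4 of 5 of normal dogs were above background at LPL probe 1, so these sizes are uncertain. With normexp background the change was 1.67 ± 0.26 in mutants and 1.33 ± 0.26 in normal dogs, still called.

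PLTP gave different answers at its probes. PLTP probe 1 gave 2.19, 2.61, 1.91, 2.19 and 1.78 in CNTF eyes of mutant dogs, against 1.96, 2.93, 2.48, 2.46 and 2.05 in PBS eyes of mutant dogs. PLTP probe 1 gave 2.32, 1.86, 2.45, 2.03 and 2.61 in CNTF eyes of normal dogs, against 2.34, 1.81, 1.51, 1.54 and 1.55 in PBS eyes of normal dogs. The groups overlapped in both genotypes, 4 of 5 mutants were lower and 4 of 5 normal dogs were higher. The change was -0.24 ± 0.17 in mutants (not called) and 0.51 ± 0.17 in normal dogs (called, though not without normal dog 3, 4 or 5, when it was 0.40, 0.51 and 0.37). PLTP probe 2 gave -1.20 ± 0.31 in mutants, lower in all 5 dogs and called, and -0.36 ± 0.31 in normal dogs, not called. Without mutant dog 4 its change in mutants was -0.99 ± 0.33 and was not called.

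PLTP probe 1 (chr24:36166936-36166995) was assigned by its description, lies on the plus strand and sits between PLTP probe 2 and the 4 probes of CTSA, the gene of the lysosomal protective protein cathepsin A, which are on the plus strand too. CTSA is the next protein-coding gene to PLTP in RefSeq's order, and it was looked at after the PLTP values were seen. Profiles were centred on their own means over the 20 arrays. PLTP probe 1 and the CTSA probes then differed by a root mean square of 0.18 to 0.24, and PLTP probes 1 and 2 by 0.70. A small difference was not particular to CTSA, since SEPTIN5 (0.07) and TUBG1 (0.08) were closer to PLTP probe 1. The CTSA probes gave -0.07 to 0.24 in mutants, none called, and 0.58 to 0.89 in normal dogs, all called. PLTP probe 1, at -0.24 in mutants and 0.51 in normal dogs, lay below each of them in both genotypes. Only probe 2 carries both the gene name PLTP and the minus strand, and whether probe 1 reads PLTP or CTSA transcripts was not tested.

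**Figure D3:**
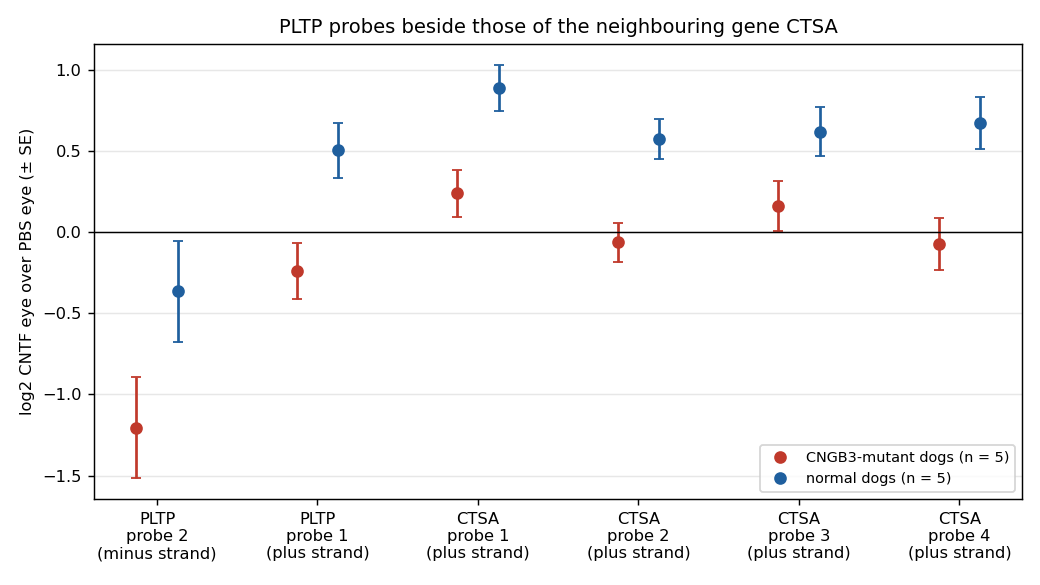
Change of the CNTF eye over the PBS eye (vertical axis, log2, with SE bars, 5 dogs per genotype) at the 2 PLTP probes and the 4 probes of the neighbouring gene CTSA, in mutant dogs (red, left of each pair) and normal dogs (blue, right). PLTP probe 1 lies above 0 in normal dogs, as the CTSA probes do, but below each CTSA probe in both genotypes. PLTP probe 2 lies below 0 in both genotypes.

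Among the fatty acid binding proteins FABP5 and FABP7 were higher, and FABP3 and FABP12 lower, in CNTF eyes of both genotypes. FABP5 probe 1 gave 3.99, 3.94, 2.86, 4.18 and 3.96 in CNTF eyes of mutant dogs, against 1.83, 1.63, 2.01, 1.52 and 2.40 in PBS eyes of mutant dogs. FABP5 probe 1 gave 4.33, 4.26, 4.26, 4.49 and 4.09 in CNTF eyes of normal dogs, against 2.46, 2.02, 1.69, 2.32 and 1.82 in PBS eyes of normal dogs. No eyes overlapped, and mutant dog 3 lay well below the other CNTF eyes at this probe, whereas at FABP5 probe 2 it gave 3.12 beside 3.22 to 3.46 in the other mutants. The change was 1.91 ± 0.22 at probe 1 and 2.13 ± 0.14 at probe 2 in mutants, and 2.22 ± 0.22 and 2.10 ± 0.14 in normal dogs. FABP5 probes 3 and 4, on the minus strand opposite to probe 2, were above background on 1 and 0 of the 20 arrays and were not tested.

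FABP7, the brain-type member, varied more between PBS eyes than any other of the family. FABP7 gave 1.55, 2.99, 2.96, 2.25 and 2.50 in CNTF eyes of mutant dogs, against -1.13, 1.86, 0.76, 0.37 and -0.30 in PBS eyes of mutant dogs. FABP7 gave 2.36, 2.42, 2.41, 1.73 and 1.88 in CNTF eyes of normal dogs, against -1.36, 0.79, 0.45, 0.92 and -0.10 in PBS eyes of normal dogs. Every dog was higher in its CNTF eye, by 1.13 to 2.80 in mutants and 0.81 to 3.73 in normal dogs, and the groups overlapped in mutants through the CNTF eye of dog 1 and the PBS eye of dog 2. The change was 2.14 ± 0.35 in mutants and 2.02 ± 0.35 in normal dogs.

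FABP3, the heart-type member, was moderately lower. FABP3 probe 1 gave 0.36, 0.74, -0.02, 0.41 and 0.15 in CNTF eyes of mutant dogs, against 1.02, 1.34, 1.04, 1.22 and 0.81 in PBS eyes of mutant dogs. FABP3 probe 1 gave -0.16, 0.06, 0.25, 0.36 and 0.49 in CNTF eyes of normal dogs, against 1.03, 0.72, 0.75, 0.73 and 0.68 in PBS eyes of normal dogs. The CNTF eye was the lower in all 10 dogs and the groups did not overlap. FABP3 fell by 0.76 ± 0.14 on the log2 scale in mutants and by 0.58 ± 0.14 in normal dogs, and its probe 2 gave -0.73 ± 0.17 and -0.60 ± 0.17.

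FABP12, a family member described in rodent retina and testis, fell most of the 10. FABP12 gave -0.91, -0.29, -0.33, 0.24 and -0.12 in CNTF eyes of mutant dogs, against 2.16, 1.93, 2.06, 2.14 and 2.57 in PBS eyes of mutant dogs. FABP12 gave 0.16, -0.25, -0.12, 0.17 and -0.37 in CNTF eyes of normal dogs, against 2.71, 2.42, 2.75, 2.57 and 2.70 in PBS eyes of normal dogs. A gap of more than a doubling separated every CNTF eye from every PBS eye. The change was -2.46 ± 0.16 in mutants (5.48-fold lower) and -2.71 ± 0.16 in normal dogs (6.55-fold lower), opposite in direction to FABP5, with which the printed probe shares bases.

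FABP4, the adipocyte-type member next to FABP12 in RefSeq's order, is no member of the set and was looked at after its values were seen. FABP4 probe 1 gave -5.18, -2.37, -4.99, -3.14 and -4.06 in CNTF eyes of mutant dogs, against -1.94, -1.34, -3.43, -1.64 and -1.19 in PBS eyes of mutant dogs. FABP4 probe 1 gave -6.15, -4.30, -1.86, -5.17 and -4.51 in CNTF eyes of normal dogs, against -1.44, -0.42, 0.01, -0.55 and -0.29 in PBS eyes of normal dogs. The CNTF eye was lower in all 10 dogs at both FABP4 probes. Only 3 of 5 CNTF arrays of mutants and 1 of 5 of normal dogs were above background at probe 1, so its fitted changes, -2.04 ± 0.41 in mutants and -3.86 ± 0.41 in normal dogs, have no certain size.

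**Figure D4:**
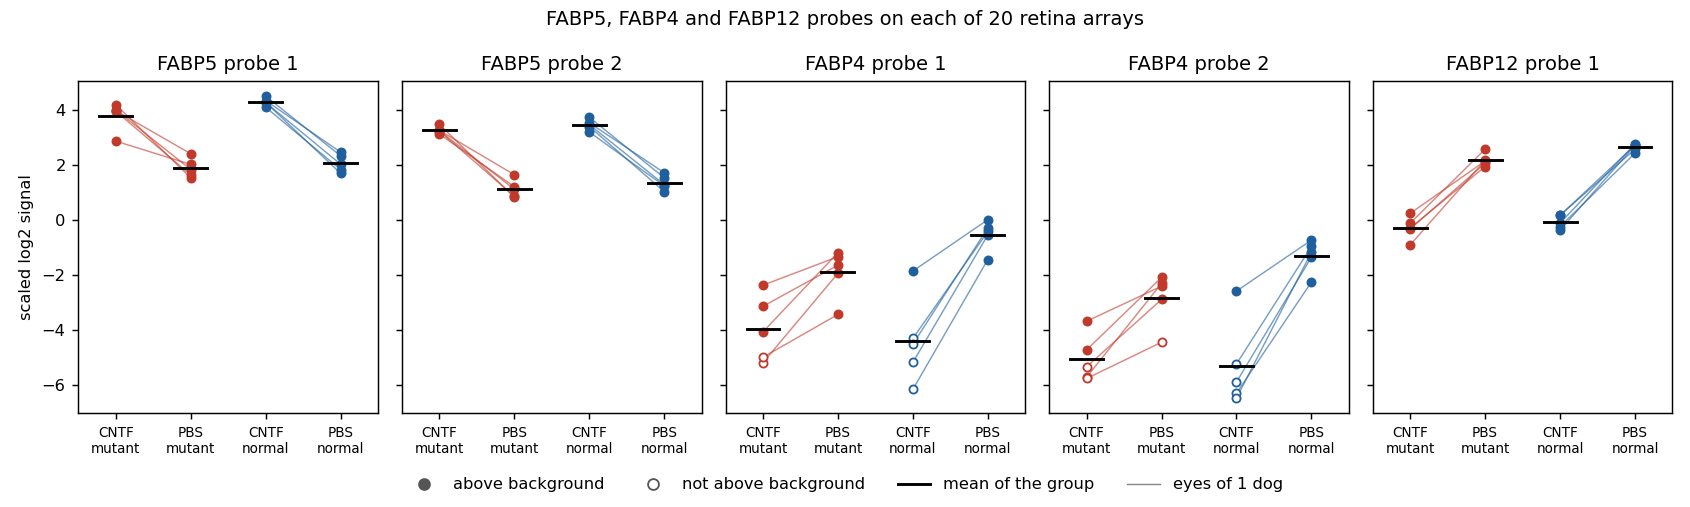
Scaled log2 signal (vertical axis) of the FABP5, FABP4 and FABP12 probes on each of the 20 arrays, in CNTF and PBS eyes of mutant dogs and then of normal dogs, with lines joining the eyes of 1 dog, bars at group means of 5 and open points for signals not above background. Both FABP5 probes lie higher in CNTF eyes, whereas both FABP4 probes and FABP12 lie lower.

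The next question was whether mutants and normal dogs responded differently. The difference of the CNTF changes, mutant minus normal, was called for 0 of the 10 genes and 0.0% of the 29336 probes by limma, although 1 of the 10 genes and 10163 probes had an unadjusted p under 0.05. That gene was PLTP, at -0.74 ± 0.24 for probe 1 (limma, adjusted p = 0.103). APOE differed by -0.43 ± 0.21 (adjusted p = 0.16) and by -0.93 ± 0.20 at probe 4 (adjusted p = 0.103). For FABP12, FABP5, FABP7 and ABCA1 the differences were 0.26 ± 0.22, -0.31 ± 0.31, 0.12 ± 0.49 and 0.03 ± 0.18, with adjusted p of 0.415 or more. LPL had a difference of 0.73 ± 0.65 and APOD of -0.42 ± 0.46, with adjusted p of 0.418 and 0.52. An adjusted p above the threshold does not show that the genotypes respond alike. The CLU differences are not read, since the CNTF arrays were saturated.

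The genotypes were also set side by side within each treatment. Between mutant and normal PBS eyes 0 of the 10 genes were called, where 0.0272% of probes were, and 5 had an unadjusted p under 0.05, as did 34.6% of the 29433 probes. FABP12 averaged 2.17 in PBS eyes of mutants and 2.63 in those of normal dogs, a difference of -0.46 ± 0.14 (limma, adjusted p = 0.0953). PLTP probe 1 averaged 2.37 in mutants and 1.75 in normal dogs, a difference of 0.62 ± 0.22 (limma, adjusted p = 0.0986), and CTSA probe 1 differed by 0.59 ± 0.20 (adjusted p = 0.098). APOE probe 1 averaged 4.80 in mutants and 4.23 in normal dogs, 0.58 ± 0.25 apart (limma, adjusted p = 0.132). Without normal dog 1 PLTP was called, at 0.77 ± 0.20, but so were 21.4% of all probes. In CNTF eyes 0 of the 10 genes were called between genotypes, where 0.00681% of probes were, and 0 had an unadjusted p under 0.05. The CNTF difference of FABP5 probe 1 was -0.50 ± 0.23 (limma, adjusted p = 0.896) and that of APOE 0.15 ± 0.23.

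For APOE the order of the groups was thus CNTF eyes of mutants (6.16 ± 0.48, SD, n = 5), CNTF eyes of normal dogs (6.01 ± 0.28), PBS eyes of mutants (4.80 ± 0.54) and PBS eyes of normal dogs (4.23 ± 0.31). For FABP5 probe 1 the order was CNTF eyes of normal dogs (4.29 ± 0.15), CNTF eyes of mutants (3.79 ± 0.53), PBS eyes of normal dogs (2.06 ± 0.33) and PBS eyes of mutants (1.88 ± 0.35). For FABP12 it was PBS eyes of normal dogs (2.63 ± 0.14), PBS eyes of mutants (2.17 ± 0.24), CNTF eyes of normal dogs (-0.08 ± 0.24) and CNTF eyes of mutants (-0.28 ± 0.41). The genotype neighbours in these orders were not called different in either treatment. Profiles over the 20 arrays were compared between each gene above background on all arrays and 7570 such genes, by the root mean square difference after centring each on its mean. BTG2 (0.22) and ECSCR (0.24) were closest to APOE, ANGPT2 (0.37) and DLA-DMB (0.38) to FABP5, and RFX4 (0.29) and NDUFA4L2 (0.32) to FABP12. VWA5A (0.60) and SAMD9L (0.62) were closest to FABP7, and KLHL24 (0.17) and CCNT1 (0.17) to FABP3. ACTR8 (0.19) and ARPC3 (0.20) were closest to ABCA1, and SEPTIN5 (0.07) and TUBG1 (0.08) to PLTP probe 1. A gene with a small spread has close neighbours for that reason alone, APOD and LPL were not above background on all arrays, and the saturated CLU profile was not compared.

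Lists of other lipid genes, none of them among the 10, varied in direction. Their median changes were -0.25 to -0.02 in mutant dogs and -0.48 to 0.40 in normal dogs, where the median of all probes was -0.09 in each. In normal dogs only the ABC lipid transporters (-0.48) lay below that of all probes. In mutants only the lipid-sensing nuclear receptors and cofactors (-0.02) lay above it. Of 11 measured apolipoproteins and lipocalins 3 were called higher and 2 lower in mutant dogs, and 4 higher and 0 lower in normal dogs. APOC1, which lies next to APOE, was called higher in both but was saturated on all CNTF arrays. APOB and APOF, called higher in both, were above background on 0 of 5 PBS arrays of normal dogs. APOB was also above background on only 1 of 5 CNTF arrays of normal dogs and on 0 of 5 PBS arrays of mutants. Of 9 ABC lipid transporters 4 were called lower and 0 higher in each genotype, among them ABCA6 (-0.51 ± 0.13 in mutants, -0.91 ± 0.13 in normal dogs) and the sterol exporter ABCG1 (-1.31 ± 0.19 and -0.64 ± 0.19), opposite in direction to ABCA1. ABCA5 was called lower too, above background on 0 of 5 CNTF arrays of normal dogs.

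Of 9 lipases and lipoprotein remodelling genes 2 were called higher and 1 lower in mutants, and 3 higher and 1 lower in normal dogs. BPI, a relative of PLTP that binds bacterial lipid, changed by 4.29 ± 0.33 in mutants and 5.13 ± 0.33 in normal dogs, and ANGPTL4, an inhibitor of LPL, by 2.0 ± 0.19 and 1.87 ± 0.19. PNPLA2, the triglyceride lipase of lipid droplets, gave -0.29 ± 0.17 in mutants (not called) and -0.87 ± 0.17 in normal dogs. Of 10 lipoprotein receptor and uptake genes 1 was called higher and 4 lower in mutants, and 3 higher and 2 lower in normal dogs. They included TREM2, a microglial lipid receptor called higher in both and above background on 1 of 5 PBS arrays of mutants and 0 of 5 of normal dogs. LRPAP1, a chaperone of these receptors, gave 0.01 ± 0.14 in mutants (not called) and 0.63 ± 0.14 in normal dogs.

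Of 7 other intracellular lipid binding genes 0 were called higher and 1 lower in mutants, and 3 higher and 0 lower in normal dogs. The 3 were DBI (0.26 ± 0.12 in mutants, 0.61 ± 0.12 in normal dogs), NPC2 (0.32 ± 0.15 and 0.76 ± 0.15) and NPC1 (-0.10 ± 0.10 and 0.32 ± 0.10), of which NPC1 and NPC2 move cholesterol out of lysosomes. Of 17 fatty acid activation and storage genes 3 were called higher and 6 lower in mutants, and 5 higher and 7 lower in normal dogs. The fatty acid activating enzymes ACSL1 (1.58 ± 0.09 in mutants, 1.44 ± 0.09 in normal dogs) and ACSL5 (1.59 ± 0.13 and 1.69 ± 0.13) were among the higher, and ELOVL4, the photoreceptor enzyme of very long chain fatty acids, was lower (-0.87 ± 0.12 and -0.86 ± 0.11). Of 10 lipid-sensing nuclear receptors and cofactors 1 was called higher and 2 lower in mutants, and 3 higher and 2 lower in normal dogs. MYLIP, a degrader of lipoprotein receptors, changed by 0.67 ± 0.12 in mutants and 0.95 ± 0.12 in normal dogs. NR1H2, an oxysterol receptor, gave 0.10 ± 0.12 and 0.52 ± 0.12, and PPARGC1A, a coactivator, gave -0.10 ± 0.10 and -0.39 ± 0.10, both called in normal dogs but not in mutants.

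Whole retina was measured, so more or fewer cells of a type and more or less RNA per cell cannot be told apart. All 5 rod markers on the array were measured, and the linear signal summed over 3 of them, in units of each array's 75th percentile, was 175 to 287 in CNTF eyes and 253 to 458 in PBS eyes of mutants, and 200.2 to 295 in CNTF eyes and 222 to 290.3 in PBS eyes of normal dogs. Of 11 microglia and macrophage markers 9 had a probe, of which 8 were called higher in mutant dogs and 9 in normal dogs. The same sum over the 7 measured on all arrays was 23.8 to 38.8 in CNTF eyes of mutants, against 6.69 to 9.64 in PBS eyes of mutants. It was 22.6 to 35.4 in CNTF eyes of normal dogs, against 4.68 to 6.19 in PBS eyes of normal dogs. The members called higher moved with this list, and its part in their changes was not tested. The CNTF eye of mutant dog 2, where LPL was lowest, had the highest sum. Of 7 Müller glia markers 0 were called higher and 2 lower in mutants, and 3 higher and 1 lower in normal dogs. That list holds DKK3, which was not fitted, and CLU, counted there by its saturated probe 1 and not called. CLU probe 5, called higher in both genotypes, is not in that count. Of 3 measured adipocyte markers 0 were called higher in either genotype, with sums of 0.51 to 0.92 in CNTF eyes and 0.65 to 1.11 in PBS eyes of mutants. In normal dogs 2 of the 3 were called lower, LEP (-0.26) and PLIN1 (-0.55), with sums of 0.69 to 0.92 in CNTF eyes and 0.95 to 1.04 in PBS eyes. FABP4 moved with this list in normal dogs, and the list's part in it was not tested. The endothelial markers CDH5 and TEK were not above background on enough arrays to be measured. Of 5 other endothelial markers 1 was called higher and 1 lower in mutants, and 3 higher and 1 lower in normal dogs. The one called lower in both was KDR (-1.20 in mutants, -0.78 in normal dogs). Sums of 4 of these markers, KDR among them, were 6.36 to 8.17 in CNTF eyes and 9.99 to 14.4 in PBS eyes of mutants. In normal dogs they were 6.77 to 9.11 in CNTF eyes and 9.02 to 13.6 in PBS eyes, so the sums and the calls did not all move one way.

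Treatment followed slide. Of the 5 slides of 4 arrays, only slide 3 held both treatments, with CNTF eyes of normal dogs 1 and 2 beside PBS eyes of mutant dogs 4 and 5, so its values mix treatment with genotype. Within slide 3 the CNTF arrays were above the PBS arrays by 1.53 for APOE, 2.30 for APOD, 2.16 for LPL, 2.33 for FABP5 and 2.36 for FABP7, and below them by values of -1.07 for FABP3 and -2.39 for FABP12. PLTP probe 1 gave -0.16 there, opposite to its change in normal dogs. With slide as a block in place of dog, a fit that rests on the few arrays that link slides, the calls that stayed at main probes were those of FABP12 in mutants (-3.19 ± 0.36) and of APOE (2.55 ± 0.64), FABP5 (2.33 ± 0.58) and FABP12 (-3.04 ± 0.36) in normal dogs. Over all probes 1.71% were then called higher and 1.02% lower in mutants, and 2.95% higher and 0.972% lower in normal dogs. APOE was 1.83 ± 0.64 and FABP5 2.04 ± 0.58 in mutants in that fit, neither called. FABP3 was -1.08 ± 0.36 in mutants and -0.61 ± 0.36 in normal dogs, and CLU probe 5, saturated in CNTF eyes, 1.39 ± 0.51 and 1.73 ± 0.51, none of them called. ABCA1 was 0.63 ± 0.36 in mutants and 0.13 ± 0.36 in normal dogs, not called in either. APOD was 1.65 ± 0.87 in mutants and 1.25 ± 0.87 in normal dogs, LPL 2.44 ± 1.77 and 0.99 ± 1.77, and FABP7 1.90 ± 1.18 and 2.96 ± 1.18, none of them called. FABP5 probe 2 stayed called in both genotypes (2.06 ± 0.42 in mutants and 2.08 ± 0.42 in normal dogs). With slide as a random block, by limma's duplicateCorrelation, each CNTF call of the 10 genes held in both genotypes. Over all probes 28.6% were then called in mutants and 48.3% in normal dogs. The correlation estimated within slides was -0.09 and treatment followed slide, so this fit could not separate slide from treatment.

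**Figure D5:**
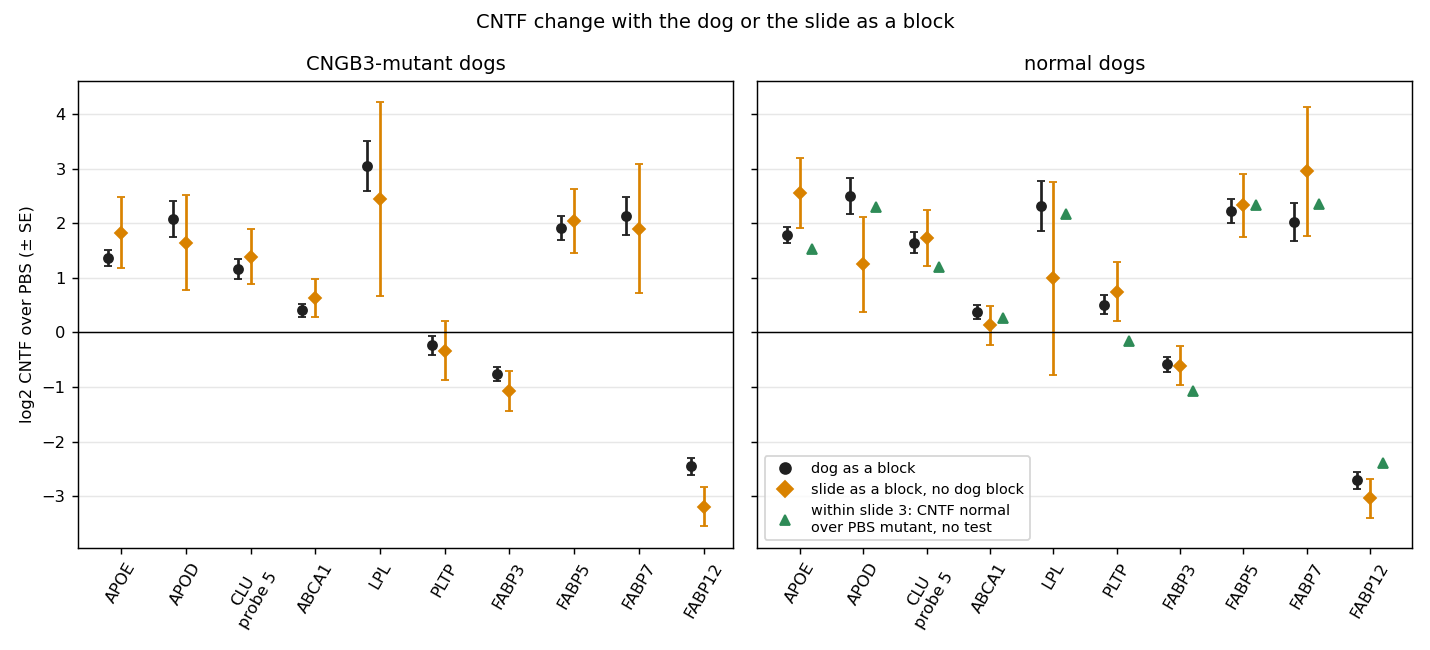
CNTF change (vertical axis, log2, with SE bars) of the 10 genes in mutant dogs (left) and normal dogs (right), with the dog as a block (black circles) and with the slide as a block (orange diamonds). Green triangles, without error bars, are the difference within slide 3 between 2 CNTF arrays of normal dogs and 2 PBS arrays of mutants. FABP3 and FABP12 lie below 0 throughout, and the error bars with slide as a block are wider for every gene.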

How the data were processed

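Each retina was hybridised alone to a single-colour Agilent array. Per the file headers, the authors' spot intensity is the processed signal of Agilent Feature Extraction 9.5.3.1, already corrected for background and spatial trend, and probe positions are on canFam2, while the marks for background, saturation and outliers are other columns of the deposited array files. The deposited matrix holds log2 values whose columns share 1 distribution (Partek 6.4, per the submitters' processing notes) and served as an alternative only. Arrays have no count depth: 52.2 to 71.9% of probes were above background and 127 to 209 were saturated per array, with a 75th percentile of 291 to 592 intensity units.

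Control spots (1417 of 45220) and outlier spots were left out and spots of a probe averaged, giving 43603 probes. Log2 processed intensity minus the 75th percentile of the array was used, and 29545 probes were kept whose signal passed background on 4 or more of the 5 arrays in some group. limma 3.58.1 (R 4.3.3) fitted dog as a block with a CNTF term per genotype to all 20 arrays, and genotypes within a treatment on 10 arrays, with Benjamini-Hochberg adjustment over all probes. The fit was tested on simulated data. Figures used Python 3.11.15 with matplotlib 3.10.9.

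Eyes are paired because both eyes of each dog were measured. Which CNTF eye and PBS eye belong to 1 dog was taken from the replicate numbers in the sample titles. As a check, deviations from the group mean were correlated between the eyes of a dog. The r was -0.15 to 0.69 over 27888 probes and 0.17 to 0.73 over the 500 most variable. The eye with the same dog number was the best match for only 4 of the 10 dogs over all these probes. Over the 500 most variable it was the best match for 9. The members, gene lists, alternatives and naming rule (all members with every probe, up to 3 genes per list in order of adjusted p in normal dogs, and the 2 closest profiles) were chosen with earlier results of these data known. One gene that the naming rule picks is not reported here. Gene names and neighbours came from RefSeq's table for UU_Cfam_GSD_1.0, a different build, so none of its coordinates were used. Where a probe was saturated on all arrays of a group, a bound is given as "at least". Exon and untranslated annotation, promoters and proteins were not analysed here.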

Additional observations from a re-analysis of the deposited data

Results flagged for a closer look

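Within each group of 5 eyes at each probe, the eye farthest from the rest was compared with the group's range by Dixon's criterion, which chance passes in about 1 of 20 groups. Of 82 groups 12 had such an eye. The CNTF eye of mutant dog 2 stood apart at all 4 LPL probes, at -4.74, -5.59, -5.15 and -5.44, while the 4 other CNTF eyes of mutants lay far above. The PBS eye of mutant dog 2 stood apart at APOE probe 1, at 5.71. The PBS eye of normal dog 3, the CNGB3+/+ animal, was low at CLU probe 2 (6.45), CLU probe 5 (4.62) and PLTP probe 2 (-1.87). The PBS eye of normal dog 1 was low at ABCA1 probe 1 (-1.41) and high at FABP3 probe 1 (1.03). The CNTF eye of mutant dog 4 was low at ABCA1 probe 2 (-2.86), and that of mutant dog 3 was low at FABP5 probe 1 (2.86) but did not stand apart at FABP5 probe 2 (3.12). Causes of these values were not tested.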

How the results depend on the processing

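Of 908 recomputed values, 816 kept their direction and their side of the threshold, 41 kept their direction but lost the call, 4 gained one, 2 moved and 45 changed sign. Among the 45 the only one called in the fit of the report was PLTP probe 1 in normal dogs (-0.16 within slide 3). The others compared genotypes and were called neither in that fit nor in the alternative, and no cause was tested. The mutant minus normal difference turned for APOD (0.40), FABP7 (-1.06) and FABP12 (-0.15) with slide as a block, for ABCA1 with slide as a random block (-0.025) and for FABP7 with normexp background (-0.15). The genotype difference in PBS eyes turned for APOD (-1.05), ABCA1 (-0.13) and PLTP probe 2 (-0.18) with slide as a block, for APOD (-0.33) and FABP7 (-0.52) in males alone, for LPL with normexp (0.037) and for ABCA1 with the mean of its kept probes (-0.19). That in CNTF eyes turned for APOE (-0.024), APOD (0.25) and CLU probe 5 (-0.23) with normexp, for LPL with the mean of kept probes (-0.039), for FABP3 (-0.0076) and FABP7 (-0.46) with slide as a block and for FABP7 in males alone (-0.26). Leaving out 1 dog at a time, the mutant minus normal difference ran from -0.066 to 0.12 for ABCA1 and from -0.19 to 0.54 for FABP7. The difference in PBS eyes ran from -0.075 to 0.060 for ABCA1, from -0.22 to 0.53 for FABP7 and from -0.051 to 0.46 for PLTP probe 2. That in CNTF eyes ran from -0.042 to 0.26 for APOE, -0.36 to 0.089 for APOD, -0.017 to 0.11 for CLU probe 5, -0.044 to 0.15 for ABCA1 and -0.22 to 0.98 for LPL. With slide as a block, 0 genes were called higher and 1 lower in mutants, where 1.71% and 1.02% of all probes were. In normal dogs 2 were called higher and 1 lower in that fit, where 2.95% and 0.972% of all probes were. In PBS eyes 2 genes were called between genotypes with slide as a random block, CLU probe 5 and PLTP, where 17.1% of all probes were called. Leaving out 1 dog at a time gave 6 to 7 genes called higher in mutants, 6 to 7 in normal dogs, 2 lower in each, and 0 to 1 between genotypes in PBS eyes. Over all probes it gave 9.25% to 10.6% called higher and 12.4% to 14.1% lower in mutants, and 18.0% to 24.8% higher and 19.4% to 26.2% lower in normal dogs. With the mean of the kept probes of each gene, ABCA1 (0.18, adjusted p = 0.308 by limma) and PLTP (0.07, adjusted p = 0.806) in normal dogs and CLU in mutants (0.27, adjusted p = 0.179) lost their calls, and PLTP in mutants was called lower (-0.72, adjusted p = 0.0299). With no replicate block, so that eyes were not paired by dog, PLTP in normal dogs (0.51 ± 0.21, adjusted p = 0.0622 by limma) and ABCA1 in mutants (0.40 ± 0.15, adjusted p = 0.0522) lost their calls, and the pairing changed no other call among the 10 genes. With normexp background the median of all probes moved to 0.17 in mutants and 0.09 in normal dogs, against -0.09 in each, calls over all probes fell to 3297 and 5758, against 8473 and 15013, and 56.0% and 61.1% of calls were higher, against 40.2% and 46.0%. ABCA1 in both genotypes, PLTP in normal dogs and PLTP probe 2 in mutants then lost their calls. Without a filter on dim probes ABCA1 in both genotypes and PLTP in normal dogs lost theirs, and with quantile normalization or the deposited matrix PLTP in normal dogs did. Saturation limits CLU, and signal near background limits APOD, LPL and FABP4.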
